A study of Mus musculus with 12 samples.

Results

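The factors that start and lengthen polypeptide chains on cytoplasmic ribosomes were taken as the protein_coding genes whose name begins with Eif or Eef, 56 of the 11669 genes in the processed table (10185 of them protein_coding). Of these, 46 have initiation factor names and 10 have elongation factor names. RNA was sequenced from 12 mouse libraries, 3 in each of 4 groups, to ask how biomimetic nanodrugs act on TAMCs. The groups are named after what the cells received for 24 h: PBS (phosphate-buffered saline), NP@M, and with D in the name NP-D@M and NP-D@MP. The labels call TAMC a cell line, of marrow tissue and of the cell type immune cell, whereas the extraction protocol in the same records describes retinas. What TAMC, NP, D, M and P stand for, the strain, the age and the genotype are not given in the labels, and neither is the origin of the 3 libraries of a group (cultures, animals or 1 sample split). The p-values below therefore speak only of the spread among the sequenced libraries. NP-D@M and NP-D@MP are called the libraries with D here, and PBS and NP@M the libraries without D.

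In textbook outline, initiation begins when eIF2 carries the initiator tRNA to the small ribosomal subunit, together with eIF1, eIF1A, eIF5 and the many-subunit scaffold eIF3. The cap-binding complex eIF4F (eIF4E on the cap, the scaffold eIF4G and the helicase eIF4A) recruits the messenger RNA, and the eIF4E-binding proteins hold eIF4E away from eIF4G until mTOR phosphorylates them. Elongation then relies on eEF1A, which delivers aminoacyl-tRNA, on the eEF1B complex, which recharges eEF1A with GTP, and on eEF2, which moves the ribosome along and is inactivated by the kinase eEF2K.

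The values are FPKM (fragments scaled by gene length and by a library size) as the authors deposited them, and fold changes are differences of log2(FPKM + 1), a scale that understates the change of genes with low values. Reads recovered from the table came to 14444950 to 17338264 per library, and the members took 1.59% to 2.15% of them. The library size built into the values was 2.19 to 2.36 times the recovered reads without D and 0.468 to 0.553 times with D. Calls between D and no D were therefore made with the deposited scaling and again after scaling to the read totals of the table, and fold changes are as deposited unless read totals are named. Between the 2 scalings lies a log2 shift, before the pseudocount, of -2.17 for NP-D@M against NP@M and of -2.24 for NP-D@MP against PBS. The table looks picked for differences between D and no D, so shares of called genes hold only within it. PBS replicate 3 and NP@M replicate 2 are unlike their group mates: 9.31% and 9.11% of their genes are at 0, where the remaining 4 libraries without D have 2.65% to 2.96%. Of 9 monocyte and macrophage markers (among them Lyz2, Cd68 and Adgre1), 9 were in the table, and their summed FPKM was 2854 to 4179 without D and 31152 to 41826 with D, most of it Lyz2. Scaled to read totals, the sum of these markers was 6605 to 9147 without D and 16425 to 20182 with D. At that scaling Csf1r and Cd14 were lower in each library with D, Adgre1 and Mrc1 overlapped, and the rest were higher. Of 11 neutrophil and granulocyte precursor markers 9 were in the table, summing to 485 to 1422 without D and 1055 to 3254 with D, most of it S100a8 and S100a9. With read totals that sum was 1122 to 3327 without D and 557 to 1586 with D, the other direction, and Cxcr2 was lower with D as deposited too (9.37 to 32.5 without D and 0.0417 to 0.926 with D). The 5 dendritic cell markers summed to 68.9 to 100.3 without D and 483 to 713 with D (161 to 232 and 236 to 344 with read totals), nearly all of it Itgax. Near the floor of the table, Zbtb46 (0.109 to 0.294 and 0 to 0.0952) and Flt3 (0.0550 to 0.225 and 0 to 0.0548) were lower with D as deposited. Batf3 (0.376 to 1.64 and 0 to 0.494) and Cd209a (0.0331 to 1.22 and 0.564 to 2.64) overlapped. Of 4 megakaryocyte markers, 3 summed to 231 to 973 and 17666 to 24714 (505 to 2280 and 9315 to 12463 with read totals), nearly all of it Pf4. Of 5 epithelial markers 2 were present, with a sum of 7.06 to 9.20 without D and 18.8 to 33.9 with D (16.3 to 21.3 and 10.4 to 17.9 with read totals). Cd4 alone of 6 T and NK cell markers and Ms4a1 alone of 4 B cell markers were present, at most at 3.76 and 0.144, and no retina or erythroid marker was in the table. The part of these marker differences in the values below was not tested, and in bulk RNA fewer cells of a type cannot be told apart from less RNA per cell.

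Of the 56 factor genes, 55 reached 1 FPKM in 3 or more libraries and were tested in limma together with the other genes, 8615 in all. A gene was called at a Benjamini-Hochberg adjusted p under 0.05 over all of them. Eif2b3, a subunit of the exchange factor eIF2B, was not tested, with values from 0.429 to 1.35 FPKM over the 12 libraries. As deposited, libraries with and without D differed in nearly every tested factor gene, some higher and some lower. In NP-D@M against NP@M, 24 were called higher and 28 lower as deposited and 3 were not called, and over all tested genes 45.2% were called higher and 46% lower. In NP-D@MP against PBS, 23 were called higher and 31 lower and 1 was not called, against 45.7% and 45.8% of all tested genes. Its groups share no library with the former comparison. The spread of each gene was estimated over all 12 libraries, however, so the p-values of both comparisons are not independent. Without PBS replicate 3 and NP@M replicate 2 the counts were 24 higher and 29 lower in the former and 24 and 31 in the latter. The median log2 fold change of the tested members was -0.68 and -0.77, against 0.16 and 0.13 over all tested genes.

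Which side of that split held depended on the scaling. With read totals, 0 members were called higher in either comparison (1 and 1 were higher at an unadjusted p under 0.05 in limma, and voom on the recovered reads called 2, Eef1a1 and Eef1b2, and 0), and 38 and 39 were called lower, against 9.12% higher and 61.7% lower of all tested genes in the former comparison and 9.01% and 62.4% in the latter. Members called lower with both scalings numbered 28 in NP-D@M against NP@M and 31 in NP-D@MP against PBS, where all tested genes gave 46% and 45.8%, and 0 members were called higher with both, where all tested genes gave 9.12% and 9.01%. The share of members that was lower with both scalings in both comparisons was 50.9% (28 of 55), against 44.1% of all tested genes, and the share higher was 0 against 7.07%. In what follows a gene fell where it was called lower with both scalings. Read totals shift these fold changes down, so a gene called lower as deposited was nearly always called lower with them too. Over all tested genes this held for 3962 of 3962 and 3944 of 3945 in the 2 comparisons. The second call is therefore no separate support for a fall. A gene called higher only as deposited is said to be so. Over the 55 members the 2 comparisons had the same sign in 55, with a Pearson correlation of 0.987 (0.985 over all tested genes, which share the libraries and the scaling).

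**Figure D1:**
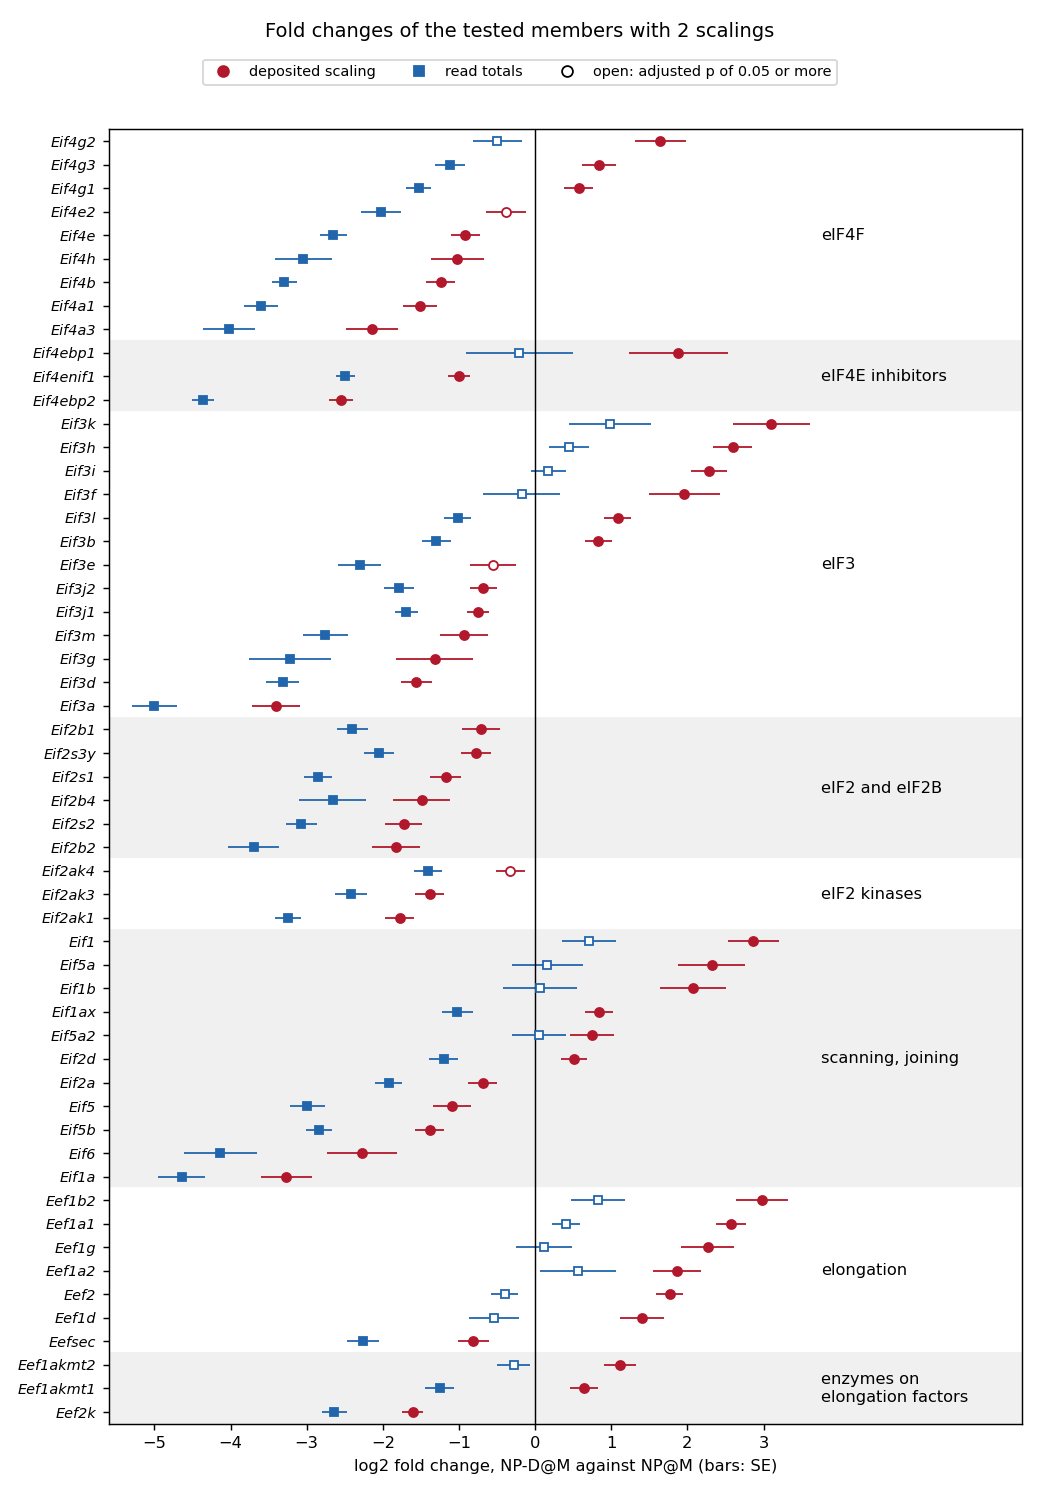
Log2 fold changes of the 55 tested factor genes in NP-D@M against NP@M, grouped by role, with the deposited scaling (red circles) and after scaling to read totals (blue squares). Bars show the standard error and open symbols an adjusted p of 0.05 or more, and the genes right of 0 in red are left of 0 or open in blue.

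Eef1a1 (ENSMUSG00000037742, chromosome 9 from 78478449 to 78489151, GRCm38), which encodes eEF1A1, was the most abundant factor in each group and held 38.0% to 59.5% of the members' summed FPKM. Eef1a1 stood at 1176, 1186 and 1115 FPKM in the PBS libraries, 1243, 1012 and 1338 with NP@M, 6159, 7435 and 7778 with NP-D@M and 5889, 7517 and 6169.8 with NP-D@MP. The 6 libraries with D lay above the 6 without. The log2 fold change reached 2.57 (SE 0.20, adjusted p = 5.57e-07) in NP-D@M against NP@M and 2.48 (SE 0.20, adjusted p = 7.13e-07) in NP-D@MP against PBS, and 0.41 and 0.25 with read totals, where it was not called. Quantile normalization turned the direction, at -0.87 and -0.98 for Eef1a1. As a share of the recovered reads Eef1a1 took 0.584% to 0.784% without D and 0.720% to 1.02% with D.

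Other elongation factors followed the same order. Eef2 stood at 596, 556 and 456 FPKM in the PBS libraries, 539, 563 and 569 with NP@M, 1788, 1933 and 1977 with NP-D@M and 2323, 1997 and 2206 with NP-D@MP. Eef2, which encodes the translocase, had no overlap between libraries with and without D, at 1.77 and 2.02 as deposited in the 2 comparisons and -0.40 and -0.21 with read totals, and quantile normalization gave Eef2 -1.22 and -1.11. Eef1b2 stood at 76.5, 61.9 and 37.2 FPKM in the PBS libraries, 59.1, 34.4 and 47.3 with NP@M, 375, 329.8 and 403 with NP-D@M and 239, 514 and 458 with NP-D@MP. Eef1b2 is an exchange factor subunit of eEF1B, and its lowest library with D was above its highest without, at 2.98 and 2.75 as deposited and 0.83 and 0.53 with read totals. Its partners Eef1g (2.26 and 2.69) and Eef1d (1.40 and 1.61) were called higher as deposited too, with read totals at 0.12 and 0.47 and -0.54 and -0.39, not called. Eef1a2, the copy of eEF1A typical of muscle and neurons, was near the floor of the table at 0 to 1.42 FPKM without D and 5.0 to 7.75 with D. Eefsec, which delivers selenocysteine, was the one elongation factor that fell (-0.81 and -0.77). In all, 6 of the 7 tested elongation factors were called higher as deposited in each comparison (medians 1.86 and 2.08) and 0 with read totals (medians 0.12 and 0.25). Of all tested genes, 45.2% and 45.7% were called higher as deposited (medians 0.16 and 0.13) and 9.12% and 9.01% with read totals (medians -1.47 and -1.48).

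**Figure D2:**
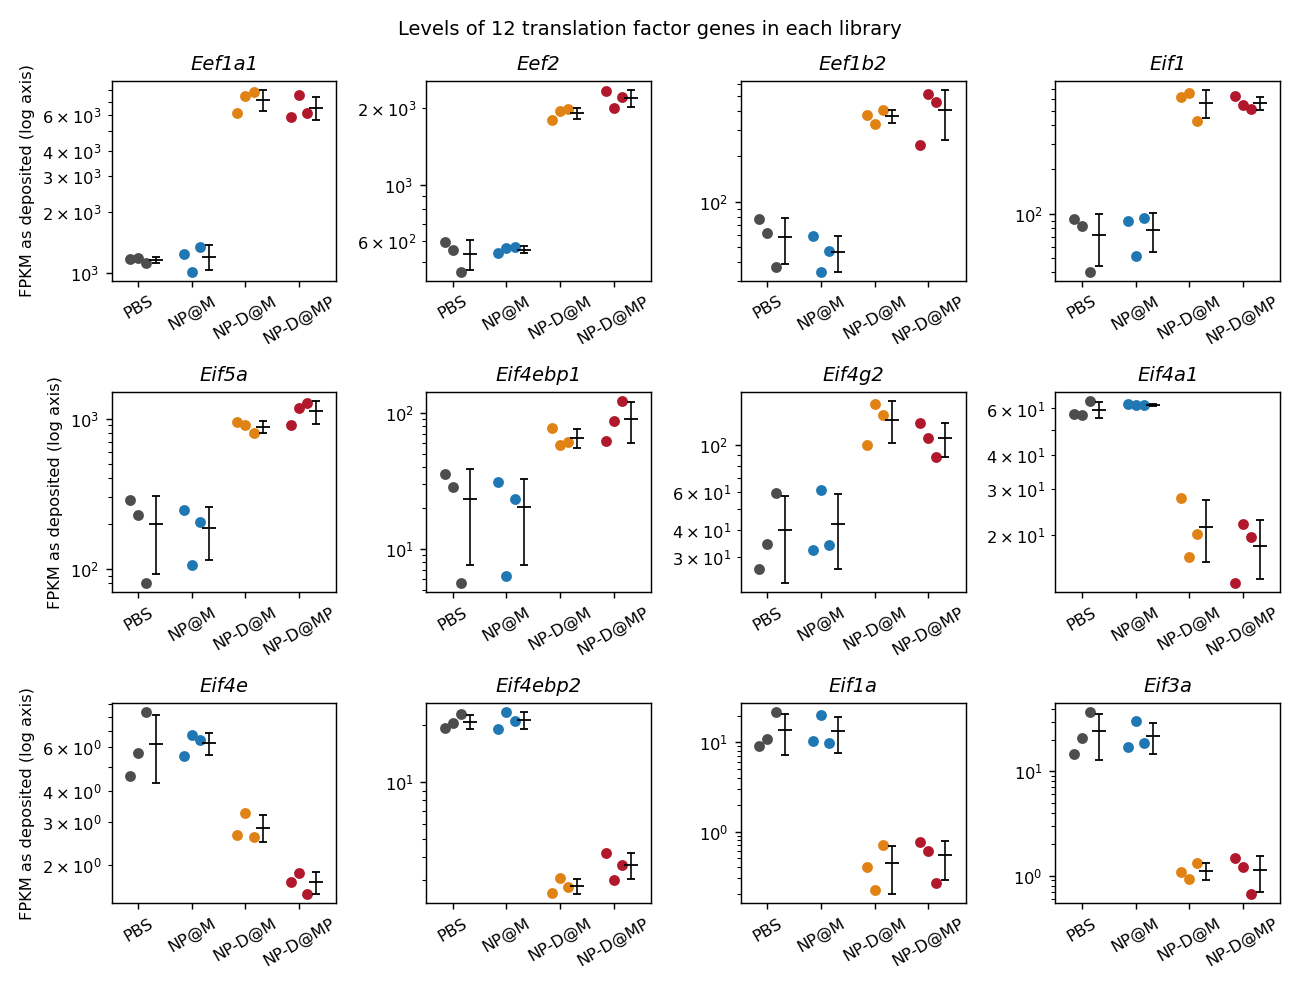
FPKM as deposited, on log axes, for 12 factor genes in each of the 12 libraries, with the mean and SD of each group of 3 beside the points. Eef1a1, Eef2, Eef1b2, Eif1, Eif5a, Eif4ebp1 and Eif4g2 are higher with D at this scaling, Eif4a1, Eif4e, Eif4ebp2, Eif1a and Eif3a are lower, and PBS replicate 3 and NP@M replicate 2 are the low points of Eif5a and Eif4ebp1 and the high points of Eif3a and Eif1a among the libraries without D.

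The enzymes that act on elongation factors split. Eef2k was at 2.42, 2.12 and 1.52 FPKM in the PBS libraries, 2.18, 2.70 and 2.32 with NP@M, 0.0625, 0.0689 and 0.213 with NP-D@M and 0.463, 0.480 and 0.395 with NP-D@MP. The kinase that inactivates eEF2 was low in each library with D, on 4 to 30 reads, against 355 to 703 reads without D. The log2 fold change reached -1.61 (SE 0.14, adjusted p = 1.51e-06) in NP-D@M against NP@M and -1.05 (SE 0.14, adjusted p = 3.56e-05) in NP-D@MP against PBS, and -2.64 and -2.19 with read totals. Quantile normalization gave Eef2k -1.06 and -0.35, and its call in the latter comparison was lost (adjusted p = 0.0623 in limma). Eef1akmt1 and Eef1akmt2, methyltransferases of eEF1A, were called higher as deposited (0.65 and 0.74 for the former and 1.12 and 0.83 for the latter) and were below 0 with read totals (-1.25 and -1.29, and -0.28 and -0.76).

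In the cap-binding complex the scaffolds parted from the helicase and the cap-binding subunit. Of 9 tested genes of eIF4F and its helpers, 5 fell in NP-D@M against NP@M and 6 in NP-D@MP against PBS (46% and 45.8% of all tested genes fell), while the 3 eIF4G genes were called higher as deposited in both. Eif4a1 stood at 57.3, 56.7 and 63.9 FPKM in the PBS libraries, 62.5, 61.6 and 61.9 with NP@M, 27.8, 16.6 and 20.3 with NP-D@M and 13.2, 22.0 and 19.7 with NP-D@MP. Eif4a1 (ENSMUSG00000059796, chromosome 11 from 69666936 to 69672423), the main helicase, was lower in each of the 6 libraries with D than in any without D. The log2 fold change reached -1.51 (SE 0.22, adjusted p = 7.17e-05) in NP-D@M against NP@M and -1.67 (SE 0.22, adjusted p = 3.32e-05) in NP-D@MP against PBS, and -3.60 and -3.81 with read totals. Reads of Eif4a1 can be shared with processed copies of eIF4A genes, and the one in the table, the pseudogene Eif4a-ps4, had a mean of 45.1 and 49.4 FPKM in PBS and NP@M and 16.2 and 16.3 in NP-D@M and NP-D@MP. Eif4e lay at 4.59, 5.69 and 8.32 FPKM in the PBS libraries, 5.54, 6.72 and 6.43 with NP@M, 2.64, 3.25 and 2.61 with NP-D@M and 1.71, 1.86 and 1.52 with NP-D@MP. Eif4e, the cap-binding protein, did not overlap between libraries with and without D either, and it fell (-0.92 and -1.38, adjusted p = 0.000883 and 4.28e-05). Eif4a3, a helicase of the exon junction complex, fell (-2.14 and -2.25), as did Eif4b (-1.24 and -1.24) and Eif4h (-1.02 and -1.33), which stimulate eIF4A. Eif4e2, a cap-binding homologue, had fold changes of -0.38 and -0.78 and was not called in NP-D@M against NP@M.

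Eif4g1 stood at 22.0, 25.1 and 27.2 FPKM in the PBS libraries, 23.9, 25.1 and 25.6 with NP@M, 29.8, 41.2 and 42.5 with NP-D@M and 37.2, 38.3 and 48.5 with NP-D@MP. The 6 libraries with D were all above those without as deposited, by 0.57 (SE 0.19, adjusted p = 0.0128) and 0.71 in the 2 comparisons, yet with read totals Eif4g1 was called lower, at -1.53 and -1.46. The call in NP-D@M against NP@M was lost without NP-D@M replicate 3 (0.48, adjusted p = 0.0530). Eif4g2 stood at 26.2, 34.3 and 59.6 FPKM in the PBS libraries, 32.2, 61.4 and 34.1 with NP@M, 99.9, 156 and 138 with NP-D@M and 127, 108 and 87.5 with NP-D@MP. Eif4g2, an eIF4G relative that lacks the eIF4E-binding part, showed a wide spread without D, with PBS replicate 3 and NP@M replicate 2 highest, and no overlap with the libraries with D. Its fold changes were 1.64 and 1.47 as deposited and -0.49 and -0.73 with read totals, not called. Eif4g3 had fold changes of 0.84 and 0.82 as deposited and -1.12 and -1.21 with read totals, where it was called lower.

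The 2 eIF4E-binding proteins went apart. Eif4ebp1 stood at 35.4, 28.4 and 5.62 FPKM in the PBS libraries, 30.9, 6.34 and 23.4 with NP@M, 76.9, 58.2 and 60.8 with NP-D@M and 62.0, 86.7 and 121 with NP-D@MP. PBS replicate 3 and NP@M replicate 2 were several-fold below their group mates, and no library without D reached one with D. Eif4ebp1 was called higher as deposited at 1.88 and 2.19 (adjusted p = 0.0172 and 0.00779), was at -0.21 and 0.03 with read totals, and lost its call in NP-D@M against NP@M without NP@M replicate 2 (1.24, adjusted p = 0.0738) or without NP-D@M replicate 1 (1.76, adjusted p = 0.0513). In NP-D@MP against PBS it was 1.42 without PBS replicate 3 (adjusted p = 0.0232). Eif4ebp2 stood at 19.3, 20.5 and 22.9 FPKM in the PBS libraries, 19.1, 23.5 and 21.2 with NP@M, 2.56, 3.09 and 2.77 with NP-D@M and 4.19, 3.03 and 3.65 with NP-D@MP. Eif4ebp2 was tight in each group and lower in each library with D. The log2 fold change reached -2.55 (SE 0.16, adjusted p = 1.61e-07) in NP-D@M against NP@M and -2.25 (SE 0.16, adjusted p = 3.25e-07) in NP-D@MP against PBS, and -4.36 and -4.15 with read totals. Eif4enif1, which carries eIF4E into the nucleus, fell (-1.0 and -0.98).

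The subunits of eIF3 covered almost the whole range of the members. As deposited, 6 of 13 tested subunits were called higher and 6 lower in NP-D@M against NP@M, and 6 higher and 7 lower in NP-D@MP against PBS. This split was near that of all tested genes, of which 45.2% and 45.7% were called higher as deposited and 46% and 45.8% lower. With read totals 0 were called higher and 9 lower in each, where all tested genes gave 9.12% and 9.01% higher and 61.7% and 62.4% lower. Eif3a stood at 14.8, 21.1 and 36.8 FPKM in the PBS libraries, 17.1, 30.2 and 18.5 with NP@M, 1.07, 0.936 and 1.33 with NP-D@M and 1.48, 1.21 and 0.663 with NP-D@MP. Eif3a (ENSMUSG00000024991, chromosome 19 from 60761116 to 60790693), the largest subunit and a core of the complex, had 2640 to 6027 reads without D and 27 to 67 with D. The log2 fold change reached -3.40 (SE 0.31, adjusted p = 2.24e-06) in NP-D@M against NP@M and -3.50 (SE 0.31, adjusted p = 1.81e-06) in NP-D@MP against PBS, and -5.0 and -5.10 with read totals. On the log2(FPKM + 1) scale no member had a larger decrease at either scaling in the 2 comparisons, whereas with 0.1 added in place of 1 Eif1a went further (-4.66 and -4.44, against -4.15 and -4.28 for Eif3a).

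Eif3k stood at 43.3, 33.2 and 11.4 FPKM in the PBS libraries, 34.0, 10.6 and 26.9 with NP@M, 205, 181 and 191 with NP-D@M and 125, 262 and 223 with NP-D@MP. Eif3k (ENSMUSG00000053565, chromosome 7 from 28971372 to 28981864), a small peripheral subunit, was low in PBS replicate 3 and NP@M replicate 2 and did not overlap between libraries with and without D. The log2 fold change reached 3.10 (SE 0.51, adjusted p = 0.00016) in NP-D@M against NP@M and 2.87 (SE 0.51, adjusted p = 0.000275) in NP-D@MP against PBS, the largest increase as deposited in the former comparison, and 0.99 and 0.68 with read totals, not called. Eif3h (2.60 and 2.38), Eif3i (2.28 and 2.19), Eif3f (1.96 and 2.02), Eif3l (1.08 and 0.96) and the core subunit Eif3b (0.83 and 1.02) were called higher as deposited. With read totals Eif3b and Eif3l were called lower (-1.30 and -1.18, and -1.01 and -1.20), and Eif3h (0.44 and 0.15), Eif3i (0.18 and 0.02) and Eif3f (-0.17 and -0.19) were not called. Eif3d, a subunit that can itself bind caps, fell (-1.56 and -1.39), Eif3m fell (-0.94 and -1.66), and Eif3e had fold changes of -0.55 and -1.0, not called in the former comparison. Eif3g, at -1.32 and -1.32, overlapped between the groups of each comparison, and its call was lost with equal medians. It was also lost in NP-D@M against NP@M without any one of NP@M replicates 1 and 3 and NP-D@M replicates 2 and 3, and in NP-D@MP against PBS without any one of PBS replicates 1 and 2 and NP-D@MP replicates 1 and 2 (adjusted p from 0.0574 to 0.104). Eif3m lost its call in NP-D@M against NP@M without NP@M replicate 2 (adjusted p = 0.0641) or NP-D@M replicate 2 (adjusted p = 0.0529). The near-identical copies Eif3j1 and Eif3j2, loosely bound subunits that may share reads, fell (-0.75 and -0.58, and -0.68 and -1.05) on levels below 2 FPKM.

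A subunit's level relative to the mean of the 13 subunits in its own library depends on the scaling between libraries only through the added 0.1. On that measure, log2(FPKM + 0.1) minus the mean, Eif3a went from 0.76 ± 0.67 (SD, n = 6) without D to -3.35 ± 0.32 with D. Eif3k went from 0.85 ± 0.68 to 4.0 ± 0.33. The subunits with a lower relative level with D were Eif3a (-4.11), Eif3j2 (-1.65), Eif3d (-1.63), Eif3m (-1.46) and Eif3j1 (-1.43), with Eif3g (-1.34) and Eif3e (-0.87) overlapping between the 6 libraries with D and the 6 without. Those with a higher one were Eif3b (1.04), Eif3l (1.16), Eif3f (2.13), Eif3i (2.40), Eif3h (2.61) and Eif3k (3.15). With read totals the 13 differences kept their direction, from -4.07 for Eif3a to 3.07 for Eif3k, and Eif3j2, which lies near the added 0.1 with D, went from -1.65 to -1.39. So the make-up of eIF3 messages within a library differed between D and no D, a description of unequal change that does not say which subunit stayed level.

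**Figure D3:**
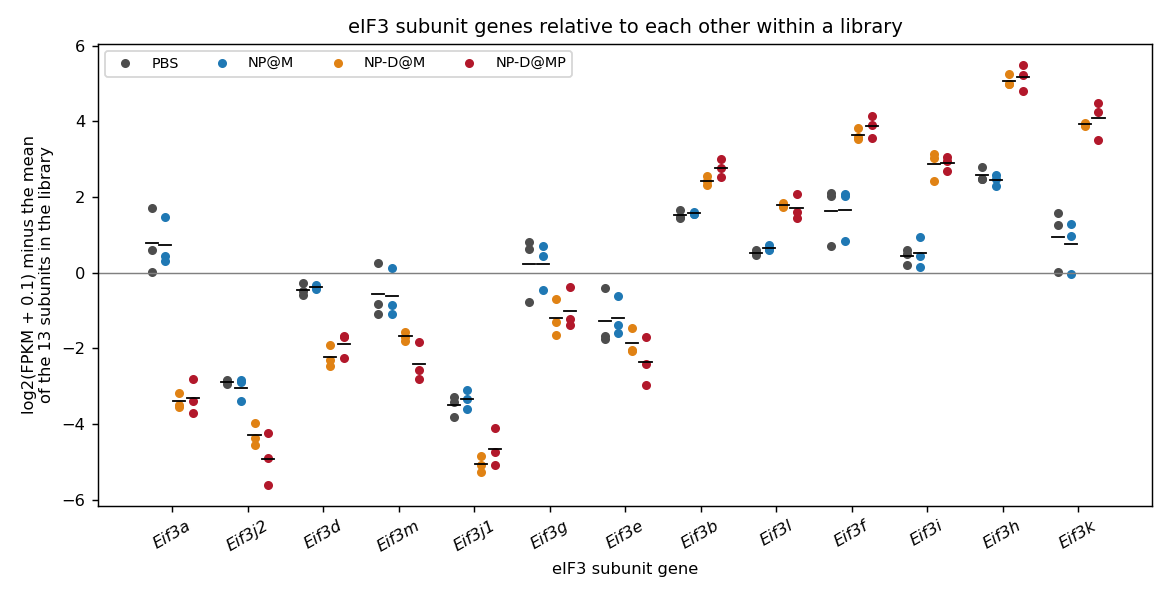
Level of each of 13 eIF3 subunit genes relative to the mean of the 13 in the same library, as log2(FPKM + 0.1) minus that mean, for the 12 libraries (points) with group means (bars). Eif3a lies near or above the mean in libraries without D and over 2 below it with D, while Eif3k, Eif3h, Eif3i and Eif3f lie further above the mean with D.

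Promoter windows of 6 genes are shown because members with opposite fold changes as deposited held the same motif. Each runs from 100 bases before the RefSeq start of the gene to 30 bases after it (RefSeq windows, GRCm38.p6, 5′ to 3′ on the gene's strand), and capitals mark exact matches to the E-box CACGTG, the TATA box TATAAA and the cyclic AMP response element TGACGTCA. Of 9 such windows read (those of Eif3a, Eif3k, Eef2, Eif4g1, Eef1a1, Eif4a1, Eif1, Eif4ebp2 and Eef1b2), 4 held an E-box and 5 did not. The 4 with an E-box were printed for that reason, those of Eif3a (chr19:60790664-60790793, minus strand), Eif3k (chr7:28981859-28981988, minus strand), Eef2 (chr10:81176531-81176660, plus strand) and Eif4g1 (chr16:20672627-20672756, plus strand). Those of Eef1a1 (chr9:78481695-78481824, minus strand), called higher as deposited, and Eif4a1 (chr11:69672394-69672523, minus strand), which fell, stand for the windows without one. This holds for the printed bases only. In its longer window, 250 bases before the start and 50 after, Eif4a1 did have a CACGTG outside the bases printed.
Eif3a: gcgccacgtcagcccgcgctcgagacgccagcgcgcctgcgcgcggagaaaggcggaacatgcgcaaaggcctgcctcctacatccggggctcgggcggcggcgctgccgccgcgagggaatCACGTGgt
Eif3k: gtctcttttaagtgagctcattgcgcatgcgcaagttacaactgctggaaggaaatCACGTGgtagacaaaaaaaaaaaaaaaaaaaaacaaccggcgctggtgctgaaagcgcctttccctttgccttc
Eef2: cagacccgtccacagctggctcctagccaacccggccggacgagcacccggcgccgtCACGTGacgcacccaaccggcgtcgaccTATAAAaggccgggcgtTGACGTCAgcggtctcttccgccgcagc
Eif4g1: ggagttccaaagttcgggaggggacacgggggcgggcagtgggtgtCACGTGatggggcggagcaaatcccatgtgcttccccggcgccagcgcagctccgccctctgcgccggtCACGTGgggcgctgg
Eef1a1: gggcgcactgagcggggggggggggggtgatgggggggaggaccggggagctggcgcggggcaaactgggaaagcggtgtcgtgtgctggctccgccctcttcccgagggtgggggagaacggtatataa
Eif4a1: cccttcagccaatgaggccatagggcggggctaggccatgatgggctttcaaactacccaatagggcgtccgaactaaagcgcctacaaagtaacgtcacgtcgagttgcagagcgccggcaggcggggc
The windows with and without an E-box each included genes that fell and genes called higher as deposited. Eef2 alone of the 9 had exact matches to TATAAA and to TGACGTCA. Variants of the TATA box, such as the letters tatataa in the windows of Eef1a1 and Eif1, were not searched. Of the 56 members, 44 had a window of 300 bases (250 before the start and 50 after), 59 windows in all. CACGTG, which is its own reverse complement, occurred in those of 12 members (27.3%) against 8.09% of all 27025 genes with a window, in 5 of 25 members that fell in both comparisons and 7 of 19 others. The ETS-type motif CCGGAAGT, searched on both strands, occurred in 9 members (20.5% against 4.31%), 4 of the 25 and 5 of the 19. GGGCGG occurred in 33 (75% against 38.2%), CCAAT in 14 (31.8% against 41.1%) and TATAAA in 5 (11.4% against 15.7%), each on both strands, and TGACGTCA in 1 (2.27% against 2.03%). The 27025 genes include many outside the processed table, and no share over the tested genes alone was computed. These matches describe letters in the windows and do not show binding.

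The tested genes of eIF2 and of its exchange factor eIF2B fell. Of 6 tested genes 6 fell in both comparisons, where 46% and 45.8% of all tested genes did, with medians of -1.33 and -1.11 against 0.16 and 0.13 over all tested genes. Eif2s1 stood at 5.18, 5.71 and 6.95 FPKM in the PBS libraries, 6.14, 6.98 and 5.92 with NP@M, 3.01, 1.42 and 2.53 with NP-D@M and 1.18, 1.46 and 1.03 with NP-D@MP. Eif2s1, the subunit whose phosphorylation slows initiation, was lower in each library with D than in any without. The log2 fold change reached -1.18 (SE 0.20, adjusted p = 0.000209) in NP-D@M against NP@M and -1.64 (SE 0.20, adjusted p = 1.66e-05) in NP-D@MP against PBS. Eif2s2, the beta subunit, fell (-1.73 and -1.17), as did the Y-linked gamma subunit Eif2s3y, whose X-linked copy is not analysed here (-0.78 and -0.78). Of the eIF2B subunits, Eif2b2 fell (-1.83 and -1.83), as did Eif2b1 (-0.71 and -1.0) and, on 2 to 21 reads with D, Eif2b4 (-1.49 and -1.06). Eif2b4 overlapped between NP-D@MP and PBS, where PBS replicate 3 was at 0.949 FPKM.

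The kinases that phosphorylate eIF2 fell as well or were not called. Eif2ak3 stood at 1.75, 1.64 and 3.64 FPKM in the PBS libraries, 1.94, 2.30 and 1.97 with NP@M, 0.154, 0.169 and 0.206 with NP-D@M and 0.228, 0.306 and 0.401 with NP-D@MP. Eif2ak3 (PERK), which responds to unfolded proteins in the endoplasmic reticulum, had 8 to 19 reads with D and 363 to 693 without, and the groups did not overlap. The log2 fold change reached -1.38 (SE 0.19, adjusted p = 4.93e-05) in NP-D@M against NP@M and -1.30 (SE 0.19, adjusted p = 7.84e-05) in NP-D@MP against PBS. Eif2ak1, the heme-regulated kinase, went from 5.63 ± 0.983 FPKM in NP@M to 0.925 ± 0.12 in NP-D@M (SD, n = 3), and its fold changes were -1.78 and -1.75 in the 2 comparisons. Eif2ak4 (GCN2), which senses uncharged tRNA, had fold changes of -0.32 and -0.66 and was not called in the former comparison. Eif2ak2 (PKR) is not analysed here.

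Start codon selection and subunit joining held large differences in both directions. Of 11 tested genes 5 fell in each comparison, and 6 and 5 were called higher as deposited, shares near those of all tested genes (46% and 45.8% fell, 45.2% and 45.7% were called higher). Eif1 stood at 92.0, 83.2 and 40.4 FPKM in the PBS libraries, 88.8, 52.0 and 93.8 with NP@M, 619, 658 and 428 with NP-D@M and 629.6, 544 and 518 with NP-D@MP. Eif1, which guards start codon choice, was lowest in PBS replicate 3 and NP@M replicate 2 and was higher in each library with D. The log2 fold change reached 2.87 (SE 0.33, adjusted p = 1.24e-05) in NP-D@M against NP@M and 3.03 (SE 0.33, adjusted p = 8.11e-06) in NP-D@MP against PBS, and 0.71 and 0.81 with read totals, not called. Eif1a stood at 9.11, 11 and 21.7 FPKM in the PBS libraries, 10.3, 20.1 and 9.84 with NP@M, 0.402, 0.221 and 0.705 with NP-D@M and 0.755, 0.597 and 0.265 with NP-D@MP. Eif1a, its partner on the small subunit, was highest in PBS replicate 3 and NP@M replicate 2 and had 5 to 19 reads in the libraries with D, against 902 to 2038 without. The log2 fold change reached -3.27 (SE 0.33, adjusted p = 4.37e-06) in NP-D@M against NP@M and -3.20 (SE 0.33, adjusted p = 5.17e-06) in NP-D@MP against PBS, and -4.64 and -4.61 with read totals. Its near-identical X-linked copy Eif1ax, with which it may share reads, was called higher as deposited at 0.84 and 0.60 and lower with read totals at -1.02 and -1.27.

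Eif5 stood at 9.23, 11.4 and 15.6 FPKM in the PBS libraries, 9.97, 16.0 and 10.5 with NP@M, 4.46, 5.37 and 5.34 with NP-D@M and 6.0, 3.42 and 4.01 with NP-D@MP. Eif5, the GTPase activator of eIF2, was lower in each library with D, at -1.09 and -1.26 (adjusted p = 0.00153 and 0.000591). Eif5a stood at 288, 229 and 80.6 FPKM in the PBS libraries, 247, 107 and 206 with NP@M, 948, 908 and 798 with NP-D@M and 904, 1166 and 1271 with NP-D@MP. Eif5a, the hypusine-bearing factor that helps ribosomes past difficult peptide bonds, was lowest in PBS replicate 3 and NP@M replicate 2, and its groups with and without D did not overlap. The log2 fold change reached 2.32 (SE 0.44, adjusted p = 0.000473) in NP-D@M against NP@M and 2.65 (SE 0.44, adjusted p = 0.000179) in NP-D@MP against PBS, and 0.16 and 0.42 with read totals, not called. Eif6, which keeps the ribosomal subunits apart, went from 23.7 ± 8.67 FPKM in NP@M to 4.19 ± 2.20 in NP-D@M (SD, n = 3) and fell (-2.28 and -2.40). Eif5b, which joins the subunits, fell (-1.38 and -1.20), and so did Eif2a (-0.69 and -0.65). Eif1b (2.08 and 2.22) and Eif2d (0.51 and 0.67) were called higher as deposited, and with read totals Eif1b stood at 0.07 and 0.11 and Eif2d was called lower (-1.20 and -1.12). Eif5a2, at 0.75 and 0.15, was called in the former comparison only and stood at 1.5 FPKM in PBS replicate 3 against 0.185 and 0.235 in the other PBS libraries.

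Ratios of 2 members within a library, taken with 0.1 FPKM added, depend on the scaling only through that 0.1. Of 14 pairs set for comparison 12 had both genes in the table, and the 6 libraries with D were set against the 6 without by a 2-sided exact permutation test (924 splits, smallest possible p = 0.00216), adjusted over the 12 pairs. The pairs were chosen with earlier results known and no share for other pairs of genes was computed, so how many pairs passed is not read as a result about the members. The log2 ratio of Eif1 to Eif1a was 2.47 ± 1.06 without D and 9.99 ± 0.72 with D (SD, n = 6 each), a difference of 7.52 (adjusted p = 0.00325) in the exact permutation test. For Eif4ebp1 to Eif4ebp2 it was -0.29 ± 1.31 without D and 4.52 ± 0.45 with D, a difference of 4.81 (adjusted p = 0.00325) in the same exact permutation test. Eif3a and Eif3k are the members with the lowest and the highest fold change in NP-D@M against NP@M, and their ratio, given as a description only, was -0.09 ± 1.35 without D and -7.35 ± 0.63 with D. Their pair was still counted among the 12 in the adjustment. In these 3 pairs the 6 libraries with D did not overlap with the 6 without. With read totals the differences of the 3 pairs were 7.26, 4.77 and -7.14 in that order.

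The log2 ratio of the kinase Eef2k to its substrate Eef2 was -7.90 ± 0.16 without D and -12.57 ± 0.74 with D, a difference of -4.67 (adjusted p = 0.00325) in the exact permutation test, and with read totals the difference was -4.23. Eif5 to Eif5a shifted by -3.81 and Eif4e to its inhibitor Eif4ebp1 by -3.56 (both adjusted p = 0.00325, exact permutation test). Smaller shifts were those of Eif2ak4 to Eif2ak1 (1.45), Eif4g1 to Eif4g2 (-0.92), Eif4a1 to Eif4a3 (0.80), Eef1a1 to Eef2 (0.63) and Eif5 to Eif5b (0.56), with adjusted p from 0.00325 to 0.0213 in the exact permutation test. Eif5 to Eif5b did not pass in 1 of the alternative settings. Over these its lowest difference was 0.12 and its highest adjusted p was 0.475 in the exact permutation test. The ratio of the eIF2 subunits Eif2s1 and Eif2s2 was 0.64 ± 0.25 without D and 1.05 ± 1.08 with D, and its difference of 0.40 did not pass (adjusted p = 0.437, exact permutation test), but was 0.75 and passed without NP-D@MP replicate 1 (adjusted p = 0.0236, exact permutation test).

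**Figure D4:**
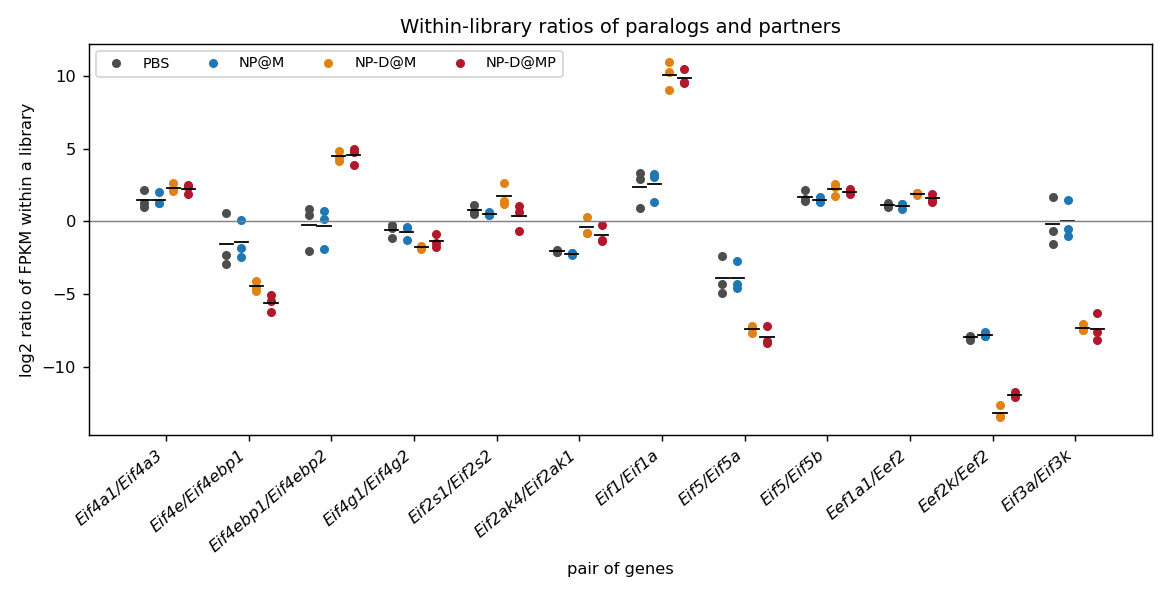
Log2 ratio of FPKM (with 0.1 added) of 12 pairs of factor genes within each library, with group means as bars. Eif1/Eif1a and Eif4ebp1/Eif4ebp2 are higher in the 6 libraries with D, Eef2k/Eef2, Eif3a/Eif3k and Eif5/Eif5a are lower, and Eif2s1/Eif2s2 overlaps.

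NP@M against PBS, which asks what NP@M does beside the buffer, showed no called factor gene. Of the 55 tested members 0 were called and 0 had an unadjusted p under 0.05 in limma, with a median log2 fold change of 0.00 and a range from -0.39 to 0.26, and over all tested genes 0.0116% were called higher and 0 lower, 27 having an unadjusted p under 0.05. The smallest p-values belonged to Eef1akmt1 (-0.35, SE 0.19), Eef1akmt2 (-0.39, SE 0.21) and Eef2k (0.18, SE 0.14), each with an adjusted p of 1 in limma. Eef1akmt1 was at 8.75, 5.87 and 6.98 FPKM in PBS and 5.74, 5.19 and 5.19 in NP@M, where the groups did not overlap. Without PBS replicate 3 and NP@M replicate 2, 0 members were called as well, and voom on the recovered reads called 0.

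NP-D@MP against NP-D@M, which differ by the P in the name, showed 0 called members, with 0 called higher and 0 lower over all tested genes as well. In limma, 4 members and 428 of all tested genes had an unadjusted p under 0.05. Eif2s1 was at 3.01, 1.42 and 2.53 FPKM in NP-D@M and 1.18, 1.46 and 1.03 in NP-D@MP, overlapping, a log2 difference of -0.55 (SE 0.20, adjusted p = 0.82). Eef2k was at 0.0625, 0.0689 and 0.213 and 0.463, 0.480 and 0.395, without overlap but on at most 30 reads, a log2 difference of 0.38 (SE 0.14, adjusted p = 0.82). Eif4e was at 2.64, 3.25 and 2.61 and 1.71, 1.86 and 1.52, lower in 3 of 3 libraries of NP-D@MP, a log2 difference of -0.50 (SE 0.19, adjusted p = 0.82). None of the 3 passed the threshold, and voom on the recovered reads called 0 members here too.

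Members known as TOP messages, whose translation mTOR controls through a pyrimidine stretch at the start of the transcript, were mostly among those called higher as deposited. Of 9 tested (Eef1a1, Eef1b2, Eef1d, Eef1g, Eef2, Eif3e, Eif3f, Eif3h and Eif4b), 7 were called higher in each comparison, where 45.2% and 45.7% of all tested genes were, with medians of 1.96 and 2.02. With read totals 0 were called higher and 2 lower, with medians of -0.17 and -0.19. Of all tested genes, 9.12% and 9.01% were called higher with read totals and 61.7% and 62.4% lower, with medians of -1.47 and -1.48. Eif4b was the member of this list that fell in both.

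Genes that signal to the factors fell for the most part. Of 13 tested, 11 fell in each comparison (medians -1.55 and -1.46), where 46% and 45.8% of all tested genes fell. The genes of the response to eIF2 phosphorylation were among them. Atf4, the transcription factor translated when eIF2 is phosphorylated, went from 84.7 FPKM ± 42.1 in NP@M to 6.70 ± 1.89 in NP-D@M (SD, n = 3), and fell in the 2 comparisons (-3.34 and -3.14). Its targets Trib3 (-4.73 and -4.24) and Ddit3 (-1.78 and -1.46) fell, and so did Ppp1r15b (-4.30 and -4.06) and Ppp1r15a (-1.55 and -2.04), which guide the phosphatase of eIF2. Sesn2, which restrains mTOR, fell (-3.86 and -3.92), as did Mtor itself (-1.09 and -0.82) and Mknk2, a kinase of eIF4E (-2.95 and -2.74). Tsc2, an inhibitor of mTOR, was called higher as deposited (1.49 and 1.60) and was not called with read totals (-0.45 and -0.41). Tsc1, on the same list, fell (-1.12 and -1.11).

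Poly(A) and cap partners split much as all tested genes did (46% and 45.8% lower with both scalings, 45.2% and 45.7% higher as deposited): 5 of 9 fell in each comparison and 4 were called higher as deposited. The helicase Ddx3x fell (-3.03 and -3.07), as did Pdcd4, an inhibitor of eIF4A (-1.51 and -1.76), and Larp1, which binds TOP messages (-1.60 and -1.42). The poly(A)-binding proteins Pabpc1 (1.96 and 1.95) and Pabpc4 (2.72 and 2.91) were called higher as deposited and were not called with read totals in NP-D@M against NP@M. Of 6 tested genes of release, recycling and rescue, 3 and 5 fell in the 2 comparisons, among them Abce1, which splits ribosomes (-1.32 and -1.30), and Mcts1 was called higher as deposited (2.45 and 2.25). Of 6 tested genes that make hypusine on eIF5A or diphthamide on eEF2, 3 and 2 fell, and Dhps, the first enzyme of hypusine synthesis, was called higher as deposited (2.21 and 2.36). Of 4 tested mitochondrial translation factors, 1 fell in each, the initiation factor Mtif2 (-0.92 and -1.01). With read totals no gene of these lists was called higher in either comparison, where 9.12% and 9.01% of all tested genes were.

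The factor genes whose pattern over the 12 libraries was most like that of Eif4a1 (Pearson correlation of log2(FPKM + 1)) were Eif2s1 (0.965), Eif4b (0.962), Eif4enif1 (0.957), Eif4a3 (0.955) and Eif3a (0.943). For Eef1a1 they were Eif3h (0.986), Eef2 (0.983), Eef1b2 (0.974), Eif1 (0.973) and Eif3i (0.970). The 12 points are the same libraries in each case and share the scaling, and the libraries with and without D stand apart in both sets. The 28 members that fell in both comparisons had a median gene length of 4959.5 bp in the table, and the 24 called lower with both scalings in neither had one of 2794.5 bp. All tested genes were alike in this. Their median was 5081 bp where they fell in both, and 2899.5 bp where neither comparison gave the same call with both scalings. Over the 55 members the Spearman correlation of fold change with gene length was -0.28 and -0.25 in the 2 comparisons, against -0.42 and -0.42 over all tested genes.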

How the data were processed

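RNA from 12 libraries (3 per group) was sequenced by the submitters. Libraries were made with the TruSeq kit from total RNA, per the labels' protocols. Bowtie 0.12.2 and the build mm8 appear in the submitters' processing notes, with no role given. The counter, the strand setting and the way genes were chosen for the table are not given in the sources used here. The FPKM values are those the authors deposited, a unit read from the values: multiplied by gene length, the values of a library are whole multiples (within 0.05) of a single step, which gives back whole reads, 15.9 M ± 0.924 per library (SD, n = 12). Reads carry no molecular identifiers. Identifiers of 56 of the 56 members match GENCODE M21 on GRCm38, and 54 have equal coordinates. Near-identical copies can share reads (Eif1a and Eif1ax, Eif3j1 and Eif3j2, Eif2s3y and its X-linked copy, and the processed pseudogenes of Eef1a1, Eif1, Eif4a1 and Eif5a).

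Groups come from the titles. Genes with at least 1 FPKM in at least 3 libraries were tested with limma 3.58.1 in R 4.3.3 on log2(FPKM + 1), with 4 group means, trend and robust empirical Bayes steps, 2-sided tests and Benjamini-Hochberg adjustment over 8615 genes. Ratios and relative levels used a pseudocount of 0.1. Read totals, the alternative scaling, divide the recovered reads by their sum over the table. The rest was done in Python 3.11.15 (pandas 2.3.3, scipy 1.17.1, numpy 2.4.6, matplotlib 3.10.9), and the procedure was tested on simulated data. The members, lists and tests were chosen with earlier results of these data known. Members named with values are the 6 largest changes per direction whose call holds with both scalings, a set list, the 3 smallest p-values where D is on both sides or neither, and the eIF3 subunits. Alternatives were equal medians, quantile normalization, a pseudocount of 0.1, no filter and a filter of 5, voom on recovered reads, limma without trend and robust, the 6 libraries compared alone, each library left out in turn, and PBS replicate 3 and NP@M replicate 2 left out together. For the eIF3 relative levels the alternatives were added after seeing the data.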

Additional observations from a re-analysis of the deposited data

Results flagged for a closer look

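A processed pseudogene named for Eif1, which the choice of protein_coding genes leaves out, had a higher FPKM as deposited in each library with D than in any without. Eif1-ps1 (chromosome 14 from 40006220 to 40006549, GRCm38) stood at 0.264, 0.477 and 0 FPKM in PBS and 0.857, 0 and 0.483 in NP@M. It was at 5.61, 5.41 and 5.47 in NP-D@M (mean 5.49 ± 0.103, SD, n = 3) and 1.73, 1.49 and 3.85 in NP-D@MP (mean 2.36 ± 1.30), on 14 to 16 and 4 to 10 reads, against 0 to 6 reads in PBS and 0 to 10 in NP@M. In reads, then, NP-D@M lay above the libraries without D and NP-D@MP did not. Whether these are reads of Eif1 itself, which was higher with D as deposited, was not tested.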

How the results depend on the processing

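With read totals 0 members were called higher in NP-D@M against NP@M and 0 in NP-D@MP against PBS, with quantile normalization 8 and 6, and with voom on recovered reads 2 and 0. Members called lower numbered 16 and 17 with a filter of 5, where fewer genes were tested. Log2 fold changes that changed sign are given by setting; they move with the shift between scalings given in the report, and beyond that the cause was not tested. In NP-D@M against NP@M, read totals gave Eif4g1 -1.53, Eif4g2 -0.49, Eif4ebp1 -0.21, Eef2 -0.40, Eif3b -1.30, Eif3f -0.17 and Eif3l -1.01, and voom -1.58, -0.50, -0.20, -0.40, -1.32, -0.17 and -1.05 for the same genes in that order. Quantile normalization gave Eif4g1 -0.95, Eif4g2 -0.41, Eif5a -0.37, Eef1a1 -0.87, Eef1g -0.14, Eef2 -1.22, Eif3b -1.02, Eif3f -0.090, Eif3j2 0.051 and Eif3l -0.35. In NP-D@MP against PBS, read totals gave Eif4g1 -1.46, Eif4g2 -0.73, Eef2 -0.21, Eif3b -1.18, Eif3f -0.19 and Eif3l -1.20, and voom -1.50, -0.74, -0.21, -1.20, -0.19 and -1.25. Quantile normalization gave Eif4g1 -0.84, Eif4g2 -0.56, Eif5a -0.081, Eef1a1 -0.98, Eef2 -1.11, Eif3b -0.95, Eif3f -0.11, Eif3h -0.15, Eif3j1 0.090 and Eif3l -0.41. Among the named members that fell, it also took away calls without a change of sign. These were Eif3j1 in NP-D@M against NP@M, and Eef2k, Eif3e and Eif3j2 in NP-D@MP against PBS. With equal medians 24 and 23 members were called higher and 23 and 24 lower. Of the 36 members named in each comparison, Eif3g in both comparisons, Eif3m in the former and Eif3e in the latter lost their calls. Members outside those 36 lost calls too, among them Eefsec in NP-D@MP against PBS (-0.44, adjusted p = 0.0524 in limma). Leaving out 1 library at a time left 21 to 24 called higher and 26 to 28 lower in NP-D@M against NP@M, and 23 to 24 and 28 to 31 in NP-D@MP against PBS. Eef2k in NP@M against PBS was -0.0079 without both PBS replicate 3 and NP@M replicate 2, and leaving out single libraries gave 0.054 to 0.28. Of the 36 members named in each comparison of D with no D, 36 kept their call and direction with a pseudocount of 0.1, without a filter, with limma without trend and robust, and without both libraries that stand apart. With read totals, an alternative chosen after seeing the data, the 12 ratios kept their direction and their side of the threshold and the 13 relative eIF3 levels their direction. No paired analysis was possible because the labels give the libraries no shared replicate numbers.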
